A study of Mus musculus with 7 samples.

Results

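The cells described here are 2698 liver barcodes with the transcript profile of mature neutrophils, chosen from 149486 barcodes that passed limits on depth and mitochondrial content in 7 droplet libraries of mouse liver. A barcode is the tag that all transcripts of 1 droplet share, and a UMI (unique molecular identifier) marks 1 captured transcript. Barcodes were kept with more than 500 UMIs and at most 20% mitochondrial UMIs. All further shares were taken over the remaining UMIs after mitochondrial genes and the hemoglobin genes starting Hba- or Hbb- were set aside, and this remainder is called the base. A mature neutrophil had to give at least 5% of its base to S100a8 and S100a9, and at least 3 UMIs and 0.3% to Csf3r, Cxcr2, Il1r2, Retnlg and G0s2 together. It also had to give less than 1% to Camp, Ngp and Ltf, the secondary granule genes of developing neutrophils. These 10 genes chose the members, so their levels are given as a description. Barcodes that met every limit but gave 1% or more to Camp, Ngp and Ltf numbered 10014 and are called granule-rich neighbours. Barcodes past the depth and mitochondrial limits that were neither members nor such neighbours are called the other barcodes.

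Neutrophils are short-lived granulocytes that are made in the bone marrow and, in the young mouse, also in the liver. While they mature they switch off the genes for primary granules first, then those for secondary and tertiary granules, and they later gain receptors for chemoattractants and growth factors. S100a8 and S100a9 form calprotectin, the most abundant protein of the neutrophil cytosol, and Csf3r is the receptor for the growth factor G-CSF. A mature neutrophil that meets damage or microbes releases interleukin-1 beta, from Il1b, and Cxcl2, a chemokine that draws further neutrophils through the receptor Cxcr2.

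The libraries are NEJ634, NEJ638, NEJ709, NEJ723, NEJ654, NEJ677 and NEJ687, all of liver tissue, made with 10x Genomics 3' chemistry version 3.1. The labels give every library the same disease state, a mouse model of hepatoblastoma, the most common liver cancer of early childhood, and name neither genotype, age nor sex. The study's methods describe both tumors of the ABC-Myc model and livers of healthy control mice. ABC-Myc mice carry Alb-Cre and a CAG-Myc transgene, so that Cre made from the albumin promoter turns on human MYC in hepatocytes. Its text calls NEJ634, NEJ687, NEJ709 and NEJ723 tumor samples, beside 3 healthy livers that it does not name by library. By elimination these would be NEJ638, NEJ654 and NEJ677. The labels do not give these groups, so the libraries were left ungrouped here, each was described on its own, and no test between tumors and healthy livers was made. The description of NEJ709 in the labels also names NEJ634. The series text speaks of nuclei, while the labels and the methods speak of dissociated cells.

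Members were found in every library, but they do not stand apart from their surroundings equally well in each. NEJ634 gave 1089 members, which was 1.62% of its barcodes (exact binomial 95% interval 1.53 to 1.72). NEJ638 gave 185 (2.60%, 2.24 to 2.99), NEJ709 gave 351 (1.34%, 1.20 to 1.49) and NEJ723 gave 302 (1.28%, 1.14 to 1.43). NEJ654 gave 134 (1.63%, 1.37 to 1.93), NEJ677 gave 116 (1.42%, 1.18 to 1.70) and NEJ687 gave 521 (5.71%, 5.24 to 6.20). The share in NEJ687 was the highest and the other 6 lay between 1.28% and 2.60%, but the order of these 6 depended on the limits. Above 1000 UMIs NEJ638 was at 1.22% and NEJ723 at 2.43%, with NEJ687 at 6.63%. With at most 10% mitochondrial UMIs NEJ638 was at 1.31% and NEJ709 at 2.28%, and with at least 10% of base from S100a8 and S100a9 NEJ634 was at 0.25%, NEJ709 at 0.24% and NEJ687 at 4.63%. With Camp, Ngp and Ltf under 2% NEJ709, at 19.7%, passed NEJ687, at 6.69%. Over all libraries the share was 1.81% (1.74 to 1.87). These intervals, like every interval given here, cover counting error only. In a share of barcodes, more neutrophils and fewer other cells cannot be told apart. Barcodes past the limits numbered 67059 in NEJ634, 26189 in NEJ709 and 23595 in NEJ723, against 7122 to 9130 elsewhere. No cell calling was applied, so droplets without a cell may be among them, and these are not shares of cells.

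In NEJ709 the data go partly against the label of mature neutrophils. The pooled other barcodes of that library gave 6.76% of their base to S100a8 and S100a9, and its barcodes of low UMI count, ranked beyond 45000 and up to 90000, gave 5.88%, both above the 5% limit. In NEJ634 the same values were 1.76% and 1.85%, and 436 of its 1089 members themselves lay among the ranks of low-UMI barcodes. In the other 5 libraries the other barcodes gave 0.046% to 1.31% and the low-UMI barcodes 0.21% to 1.09%. An estimate of the share of members' UMIs that a low-UMI profile would account for, from hepatocyte, B cell and T and NK cell genes, was 60.0% in NEJ634 and 51.9% in NEJ709, against 9.77% to 18.9% in the other 5. The low-UMI barcodes held 210 to 952 UMIs each in NEJ634, against 7 to 90 in NEJ709 and 9 to 460 in the other 5. In NEJ634, where 71066 barcodes exceeded 500 UMIs, part of that profile comes from barcodes that passed the limits. Its 60.0% is thus not a share of RNA outside cells alone and cannot be set directly beside the other values. NEJ634 and NEJ709 hold 1440 of the members (53.4%). Gene levels below are therefore those of the 5 others, which hold 1258 members, unless NEJ634 or NEJ709 is named, and counts of called genes are given for the 5 and for all 7. The choice of these 5 was made after the data were seen.

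**Figure D1:**
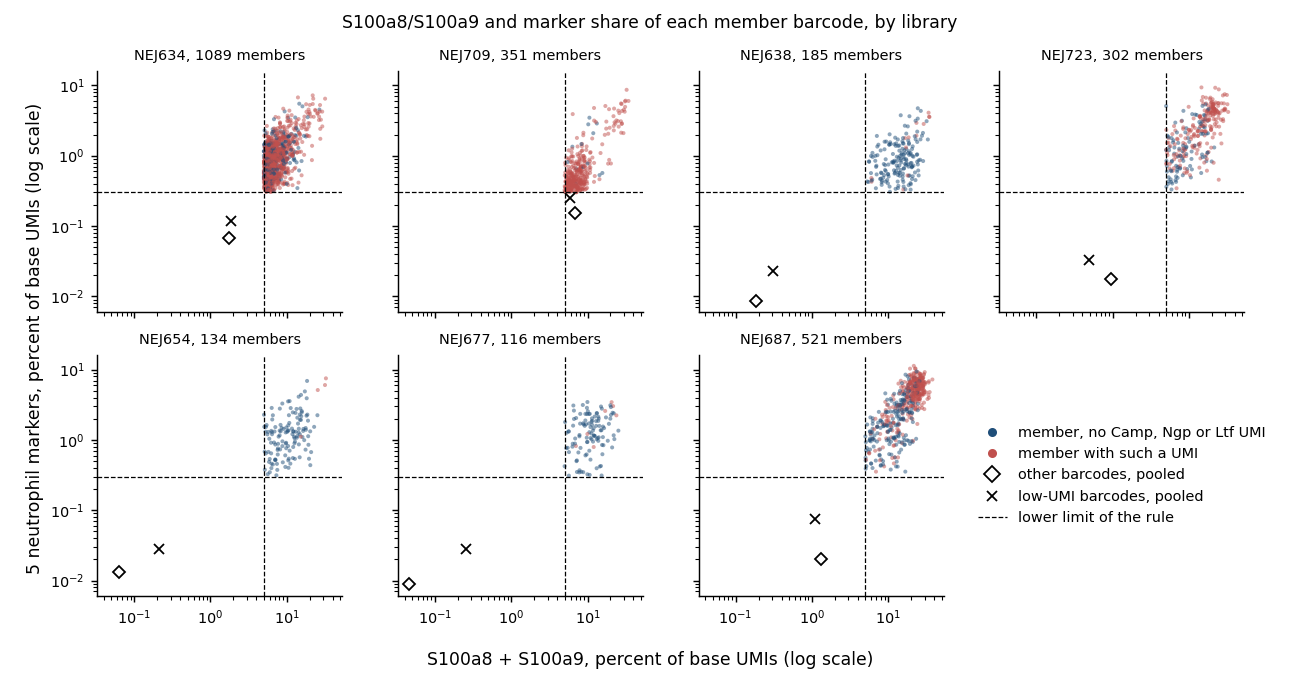
Share of base UMIs from S100a8 and S100a9 (x axis, percent, log scale) against the share from Csf3r, Cxcr2, Il1r2, Retnlg and G0s2 (y axis, percent, log scale) for each member barcode, 1 panel per library. Dashed lines are the lower limits of the rule, diamonds the pooled other barcodes and crosses the pooled low-UMI barcodes: in NEJ709 both lie to the right of the S100 limit, and in the 5 libraries other than NEJ634 and NEJ709 both lie at 1.31% or less.

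By library, the median member of NEJ638 had 971 UMIs, that of NEJ634 1069, that of NEJ654 1392, that of NEJ677 1410.5, that of NEJ709 1835, that of NEJ687 2086 and that of NEJ723 2628.5, from a median of 440 to 968 genes. The other barcodes of the same library had medians of 1003 UMIs in NEJ723 and 1770.5 in NEJ709, less than members, and of 1174 to 4425 in the other 5, more than members. Granule-rich neighbours were deeper than members in every library that held them, with medians of 1169.5 to 5807 UMIs. Whole libraries held 40214395 to 132485391 UMIs over all their barcodes. Of the members, 84 (3.11%) had a barcode sequence that also passed the limits in another library, and 0 were a member there too.

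The 17 neutrophil genes that the rule did not use were all higher in members than in the pooled other barcodes, in 7 of 7 libraries. They include Ly6g, the surface antigen used to sort mouse neutrophils, the gelatinase Mmp9, the formyl peptide receptors Fpr1 and Fpr2, and the histamine-forming enzyme Hdc. The median of their 17 folds over the other barcodes was 42.2 in NEJ638, 41.8 in NEJ723, 41.6 in NEJ687, 42.1 in NEJ654 and 52.5 in NEJ677, but 6.48 in NEJ634 and 4.29 in NEJ709. In NEJ709 the smallest fold, that of Lcn2, was 1.08. Granule-rich neighbours are not among these other barcodes, and they held more Lcn2 and Ly6g than members in NEJ638, NEJ723 and NEJ687. These folds describe cells picked for related genes and carry no test.

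The promoters of 6 genes are shown because the results turn on them: the pair that chose the cells, 2 of the 3 granule genes that set members apart from neighbours, and a cytokine and a chemokine of the members. Each runs from 250 bases before to 50 after the start of transcription in RefSeq on GRCm38.p6, 5′ to 3′ on the gene's strand. They lie at chr3:90668821-90669120 (plus strand), chr3:90695672-90695971 (minus), chr9:109849407-109849706 (minus), chr9:110419558-110419857 (plus), chr2:129371090-129371389 (minus) and chr5:90903649-90903948 (plus). Capitals mark matches on either strand to TTGCNNAA, a C/EBP-like motif, or GGNNTTTCC, a kB-like motif of the kind that NF-kappaB proteins bind.
S100a8: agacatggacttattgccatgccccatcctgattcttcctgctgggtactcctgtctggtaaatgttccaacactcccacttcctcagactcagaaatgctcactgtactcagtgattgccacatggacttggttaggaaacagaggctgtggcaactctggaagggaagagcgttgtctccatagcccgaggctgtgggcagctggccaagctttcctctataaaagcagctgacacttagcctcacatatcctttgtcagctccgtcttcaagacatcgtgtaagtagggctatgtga
S100a9: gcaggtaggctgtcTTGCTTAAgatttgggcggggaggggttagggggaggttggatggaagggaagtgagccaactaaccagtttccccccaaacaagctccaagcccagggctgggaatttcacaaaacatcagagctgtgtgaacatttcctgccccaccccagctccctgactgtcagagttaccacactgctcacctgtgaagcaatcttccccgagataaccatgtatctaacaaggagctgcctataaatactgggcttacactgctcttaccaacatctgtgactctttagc
Camp: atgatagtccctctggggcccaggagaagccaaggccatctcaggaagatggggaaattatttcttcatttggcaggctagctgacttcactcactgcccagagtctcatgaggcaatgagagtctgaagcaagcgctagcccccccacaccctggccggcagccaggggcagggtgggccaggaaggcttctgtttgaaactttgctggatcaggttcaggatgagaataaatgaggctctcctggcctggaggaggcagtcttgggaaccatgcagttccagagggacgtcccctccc
Ngp: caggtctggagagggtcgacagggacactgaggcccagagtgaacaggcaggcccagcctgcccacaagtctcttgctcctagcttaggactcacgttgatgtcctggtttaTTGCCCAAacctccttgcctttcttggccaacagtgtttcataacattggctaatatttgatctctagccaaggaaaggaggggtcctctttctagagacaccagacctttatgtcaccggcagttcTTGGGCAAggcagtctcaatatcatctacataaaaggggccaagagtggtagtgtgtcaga
Il1b: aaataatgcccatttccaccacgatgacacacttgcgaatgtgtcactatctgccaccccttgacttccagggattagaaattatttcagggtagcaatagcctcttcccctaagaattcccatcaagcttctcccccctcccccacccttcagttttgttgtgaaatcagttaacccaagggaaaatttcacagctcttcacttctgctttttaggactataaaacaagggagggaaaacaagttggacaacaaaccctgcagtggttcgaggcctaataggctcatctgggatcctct
Cxcl2: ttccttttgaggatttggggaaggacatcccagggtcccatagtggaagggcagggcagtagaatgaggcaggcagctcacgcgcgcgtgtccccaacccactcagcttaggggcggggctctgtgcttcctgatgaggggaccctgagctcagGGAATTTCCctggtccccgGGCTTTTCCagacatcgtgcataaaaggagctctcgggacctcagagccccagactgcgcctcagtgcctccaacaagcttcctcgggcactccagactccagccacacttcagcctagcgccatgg
The S100a9 promoter held 1 C/EBP-like match, 236 bases before the start, and that of Ngp held 2, at 138 and 11 bases before it. The Cxcl2 promoter held 2 kB-like matches, which begin 96 and 77 bases before the start. No match to either motif, or to the AP-1-like TGANTCA, was in the windows of S100a8, Camp and Il1b. Of 32851 promoters of 300 bases, 10.8% held the C/EBP-like, 5.82% the kB-like and 7.81% the AP-1-like letters, so a match is a description of the letters and not a site in use.

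The genes of the rule set the frame. Levels are given as UMIs summed over the members of a library per 1000000 base UMIs, written CPM, and compare 1 gene between libraries rather than genes with each other. S100a8 stood at 75910 CPM in NEJ638, 69147 in NEJ723, 75870 in NEJ687, 45681 in NEJ654 and 45605 in NEJ677, and at 43242 in NEJ634 and 63286 in NEJ709. Its partner S100a9 was at 85943, 73727, 108385, 74411 and 78308 CPM in the same 5 libraries and order, a range of 1.47-fold. The G-CSF receptor Csf3r was at 1221 CPM in NEJ638, 559 in NEJ723, 640 in NEJ687, 1539 in NEJ654 and 1771 in NEJ677. Retnlg, a resistin-like secreted protein, ran the other way, with 34393 CPM in NEJ687 and 20914 in NEJ723 against 7549 in NEJ638, 10796 in NEJ654 and 6873 in NEJ677. Of the barcodes within 1 percentage point of the S100 limit in the 5 libraries, 89 lay inside with a median of 5.48% and 100 outside with 4.49%. Within 0.1 percentage points of the marker limit 38 lay inside (median 0.351%) and 14 outside (0.259%), and within 0.2 of the granule limit 36 lay inside (0.928%) and 38 outside (1.09%).

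How far levels differ between libraries was described gene by gene. A gene was called where its highest library was at least 4-fold above its lowest and their exact Poisson intervals did not overlap, with a library at 0 set to 3 UMIs. Among the 2272 genes with a mean of at least 50 CPM in the 5 libraries, 409 were called (18.0%), and among 2400 in all 7 libraries 852 were called (35.5%). The median highest-to-lowest ratio was 2.40 over the 5 libraries and 3.17 over the 7. Counts in the lists below are to be read against these shares.

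Cytokine and chemokine genes differed between libraries. Of 15 such genes tested in the 5 libraries, 7 were called, among them Il1b, Ccl6, Il1rn and Cxcl1. Il1b stood at 10474 CPM in NEJ654 and 11005 in NEJ677, at 4788 in NEJ723 and 5060 in NEJ687, and at 2026 in NEJ638. NEJ634 with 1638 CPM and NEJ709 with 1147 lay below all 5. The exact Poisson intervals were 1814 to 2256 CPM in NEJ638, 4648 to 4931 in NEJ723 and 10506 to 11522 in NEJ677, and the ratio of NEJ677 to NEJ638 was 5.43. The level in low-UMI barcodes of the 5 libraries was 64.0 to 231 CPM, far below that of members in each.

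Cxcl2 spread less. It was at 4596 CPM in NEJ638, 7437 in NEJ723, 9961 in NEJ687, 7202 in NEJ654 and 11072 in NEJ677, a 2.41-fold range that was not called in the 5 libraries. NEJ634 with 2482 CPM and NEJ709 with 1689 were again lower. Ccl4, a chemokine for monocytes and T cells, was at 2051 CPM in NEJ638, 712 in NEJ723, 1657 in NEJ687, 1722 in NEJ654 and 867 in NEJ677. Il1rn, which encodes the antagonist of the interleukin-1 receptor, was highest where Il1b was lowest of the 5, at 867 CPM in NEJ638, against 179 in NEJ723, 212 in NEJ687, 332 in NEJ654 and 560 in NEJ677. Tnf stayed between 147 and 302 CPM in these libraries. Cxcl10 and Mif were called too, but Mif was higher in low-UMI barcodes than in members in 5 of the 5 libraries and Cxcl10 in 3 of them. The remaining called gene was Il23a, a subunit of interleukin-23, at 96.5 CPM in NEJ654 and 96.4 in NEJ677, 46.3 in NEJ723, 43.8 in NEJ687 and 0 UMIs in NEJ638.

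Per barcode, after each was thinned to 500 base UMIs, an Il1b UMI was seen in 93.3% of members of NEJ654 and 96.6% of NEJ677, in 71.6% of NEJ723 and 71.2% of NEJ687, and in 51.4% of NEJ638. In barcodes with B cell markers, which should lack the gene, the share was 0% to 1.47% in these 5 libraries. In NEJ634, however, it was 34.7% of members against 15.9% of B-marker barcodes, and in NEJ709 20.3% against 0%. Cxcl2 was seen in 53.6% to 72.5% of members and in 0.79% to 2.64% of B-marker barcodes of the 5 libraries. Median depths were 971 to 2628.5 UMIs in these members and 1221 to 2297.5 in the B-marker barcodes. Without thinning, 89.25% of the NEJ687 members had an Il1b UMI. Thinning left out 0 to 64 members per library with fewer than 500 base UMIs.

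Members of 1 library were far from uniform. In NEJ687 the 10th percentile of Cxcl2 over members was 0 CPM, the median 5995 and the 90th percentile 30627. In NEJ654 and NEJ677 even the 10th percentile of Il1b was above 0, at 3340 and 3389 CPM, with medians of 9269 and 9537. In NEJ638 the same percentile was 0 and the median 1212. A barcode of 1000 base UMIs moves in steps of 1000 CPM, so part of this spread is counting error.

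**Figure D2:**
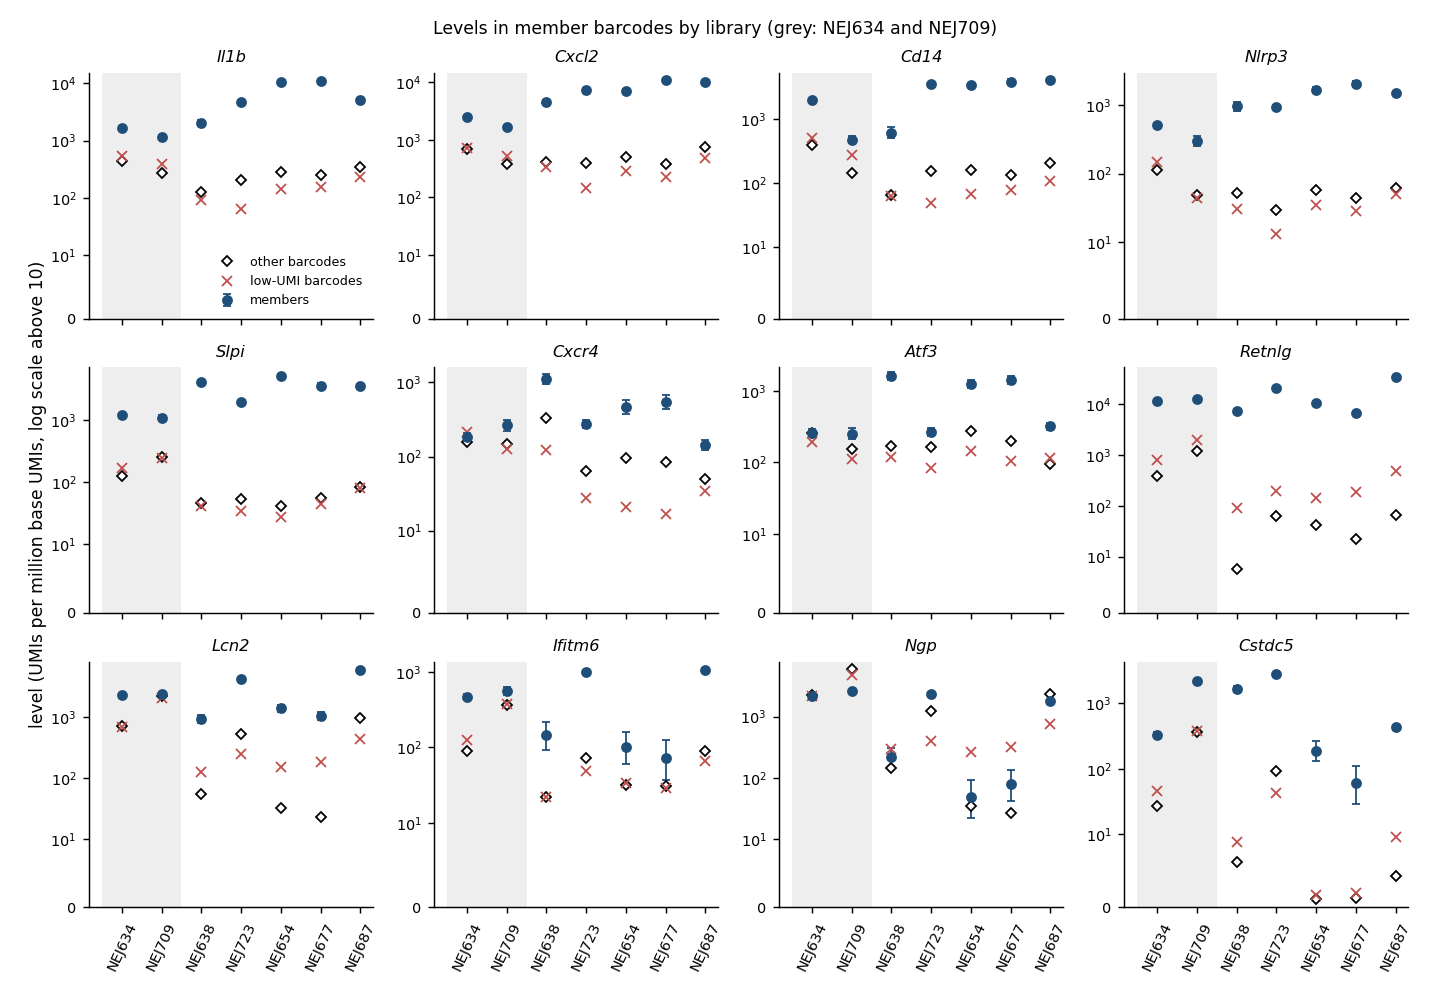
Levels of 12 genes in the members of each library (filled circles, UMIs per 1000000 base UMIs on a scale that is logarithmic above 10, with exact Poisson 95% intervals that often fall within the symbol), in the other barcodes (diamonds, with granule-rich neighbours left out) and in low-UMI barcodes (crosses). The grey band marks NEJ634 and NEJ709. Il1b ran from 2026 to 11005 CPM over the other 5 libraries and Slpi from 1914 to 5041, while Ngp lay below the low-UMI level in NEJ638, NEJ654 and NEJ677. Ngp and Retnlg are genes of the rule, which limited Ngp in members.

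Of 17 pattern recognition genes, which sense microbes and damage, 2 were called in the 5 libraries, Tlr6 and Cd14, a count near the background. Cd14, the co-receptor for bacterial lipopolysaccharide, was at 610 CPM in NEJ638 and at 3518, 3336, 3795 and 3994 in NEJ723, NEJ654, NEJ677 and NEJ687, so that 1 library stood below the rest. Nlrp3, the sensor of the inflammasome that matures interleukin-1 beta, was at 946 and 942 CPM in NEJ638 and NEJ723 and at 1636, 1994 and 1462 in NEJ654, NEJ677 and NEJ687. Clec4d, a C-type lectin for mycobacterial glycolipids, was highest in NEJ638 at 2569 CPM and lay between 1067 and 1229 in the other 4. Trem1, which amplifies inflammatory signals, stayed between 638 and 1012 CPM.

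Granule genes outside the rule differed in 4 of 11 tested. Lcn2, which binds bacterial iron carriers, was at 4232 CPM in NEJ723 and 5982 in NEJ687, against 934 in NEJ638, 1389 in NEJ654 and 1048 in NEJ677. Mmp8, the neutrophil collagenase, and Cd177, a surface protein of neutrophil subsets, were likewise highest in NEJ723 and NEJ687. Mmp8 was at 924 and 1257 CPM there, against 177 to 500 in the other 3, and Cd177 was at 142 and 195 against 36.1 to 48.3. Chil3, a chitinase-like lectin, was at 1163 CPM in NEJ723 and 89.4 in NEJ687 but had 0 UMIs in NEJ638, NEJ654 and NEJ677, where 3 UMIs would be 16.1 to 18.3 CPM. With NEJ654 set to 3 UMIs, NEJ723 was 72.3-fold higher. The low-UMI barcodes of those 3 libraries held 34.2 to 51.7 CPM of Chil3. Mmp9, a gelatinase stored in tertiary granules, did not share this pattern and stayed between 1025 and 1837 CPM. Slpi, an inhibitor of neutrophil elastase, was at 4083 CPM in NEJ638, 1914 in NEJ723, 3511 in NEJ687, 5041 in NEJ654 and 3560 in NEJ677. The primary granule enzymes Mpo, Elane and Prtn3 had 0 UMIs in members of NEJ638, NEJ654 and NEJ677 and at most 30.1 CPM in NEJ723 and NEJ687, but 67.4 to 236 CPM in NEJ634 and NEJ709. The 7 genes of that list summed to less in members than in low-UMI barcodes in every library. The sums were 296 against 461 CPM in NEJ634 and 805 against 984 in NEJ709. The rule limited 3 genes of the same class, so these values belong to cells chosen for low granule transcript.

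Stefin A genes, which encode cytosolic inhibitors of cysteine proteases, differed widely. Of 9 S100 and cystatin genes tested in the 5 libraries 5 were called, with a median ratio of 5.49 over the list, all from this cluster of near-identical copies, among which reads can be shared, so that single members are uncertain. Cstdc5 was at 1654 CPM in NEJ638 and 2802 in NEJ723, against 188 in NEJ654, 60.2 in NEJ677 and 432 in NEJ687. Stfa2 was at 391 and 882 CPM in the first pair and at 37.5, 6.02 and 150 in the others, and its ratio of 146 rests on 1 UMI in NEJ677 (counting interval 26.2 to 5789). Stfa1 was at 1800, 2491, 349, 319 and 420 CPM in the same order. NEJ638 and NEJ723 were the 2 highest of the 5 libraries for each of these 3 genes. A minority of members carried these levels. After thinning, a Cstdc5 UMI was seen in 27.1% of members of NEJ638 and 37.1% of NEJ723, and in 1.72% to 10.2% in the other 3, against 0% to 0.733% of B-marker barcodes. The median member of NEJ638 had 0 CPM of Cstdc5 and the 90th percentile was 6374. In NEJ723 the median of Cstdc5 was 386 CPM, the 75th percentile 3845 and the 90th percentile 9317. For Stfa1 the median was 0 in both NEJ638 and NEJ723 with 90th percentiles of 5349 and 7516. In NEJ709 Cstdc5 was at 2210 CPM, and in NEJ634 at 332. S100a6, another calcium-binding protein of the family, ranged 1.39-fold, from 6623 to 9206 CPM.

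Adhesion and chemoattractant receptor genes were called in 3 of 16 in the 5 libraries, a count near the background: Cxcr4, Ly6g and Itgal. Cxcr4, which holds neutrophils in the marrow and is regained by aged cells, was at 1111 CPM in NEJ638, 278 in NEJ723, 144 in NEJ687, 467 in NEJ654 and 542 in NEJ677. After thinning, a Cxcr4 UMI was seen in 34.8% of NEJ638 members and 67.9% of its B-marker barcodes, which use the gene themselves. Ly6g was at 290 CPM in NEJ687 and 42.2 to 90.4 in the other 4. Cxcr2, a gene of the rule, was at 512 to 1048 CPM.

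Receptors for growth factors and cytokines were called in 4 of 15, with Csf3r and Il1r2 set apart as genes of the rule: Il1rap, Il4ra, Il17ra and Tnfaip2, a TNF-induced gene listed with them. Il1rap, the shared chain of the interleukin-1 receptors, was at 348 CPM in NEJ638, 71.1 in NEJ723, 104 in NEJ687, 150 in NEJ654 and 187 in NEJ677.

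Transcription factors and their feedback inhibitors were called in 6 of 28, a count near the background. Atf3, a stress-induced repressor, divided the 5 libraries, at 1636, 1271 and 1416 CPM in NEJ638, NEJ654 and NEJ677 against 267 and 321 in NEJ723 and NEJ687. Nr4a1, an immediate early nuclear receptor, was instead high in NEJ654 and NEJ677, at 644 and 681 CPM, with 319 in NEJ723, 153 in NEJ638 and 95.4 in NEJ687. Nfkbia, the inhibitor that NF-kappaB induces to end its own activity, was at 885 CPM in NEJ638 and at 2963, 4505, 2741 and 2732 in NEJ723, NEJ654, NEJ677 and NEJ687. Low-UMI barcodes had 84.6 to 147 CPM of Atf3 and 214 to 628 of Nfkbia in these libraries. Cebpb, a factor of mature and emergency-made neutrophils, stayed between 2247 and 3985 CPM.

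Interferon response genes were called in 5 of 14. Ifitm6, a family member of granulocyte precursors whose reads may be shared with its close relatives, was at 992 CPM in NEJ723 and 1062 in NEJ687 against 146, 102 and 72.3 in NEJ638, NEJ654 and NEJ677. Isg15, a ubiquitin-like interferon target, was at 155 to 470 CPM in the 5 libraries and was not called there, but at 97.1 in NEJ634 and 645 in NEJ709, where low-UMI barcodes held 63.6 and 788. Irf7, a factor that drives interferon genes, was at 26.9 to 145 CPM over the 5 libraries and at 42.3 and 54.8 in NEJ634 and NEJ709. Ifi27l2a was at 1609 and 1385 CPM in NEJ654 and NEJ677, where low-UMI barcodes held 1175 and 590.

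Genes of iron, oxidative stress and low oxygen were called in 3 of 15, a count near the background: Hmox1, Hilpda and Spp1. Hmox1, the enzyme that degrades heme, was at 1642 CPM in NEJ638, 274 in NEJ723, 500 in NEJ687, 252 in NEJ654 and 126 in NEJ677. Slc7a11, the cystine importer, was also highest in NEJ638, at 2844 CPM, against 780 to 1758 in the other 4, and was not called. Fth1, the ferritin heavy chain, was at 25206 CPM in NEJ638, 18248 in NEJ723, 30051 in NEJ687, 15944 in NEJ654 and 11825 in NEJ677.

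Of 18 actin and motility genes 0 were called in the 5 libraries, as for 7 NADPH oxidase genes. Srgn, the proteoglycan core of granules, ranged 1.22-fold, from 5614 to 6824 CPM.

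Division genes were called in 5 of 6 in the 5 libraries, the highest share of the neutrophil lists, with a median ratio of 5.07 and with Mki67 at 141 CPM in NEJ723 and 168 in NEJ687, 16.1 in NEJ654 and 0 UMIs in NEJ638 and NEJ677. Members held less Mki67 than the low-UMI barcodes of the same library, at 81.4 to 443 CPM, in all 5. Survival genes were called in 2 of 9, a count near the background, and the abundant Mcl1, on which neutrophil survival depends, ranged 1.62-fold from 2607 to 4235 CPM. Hspa1a and Hspa1b were the 2 of 7 heat shock genes called but lay below the low-UMI level in each of the 5 libraries.

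With NEJ634 and NEJ709 included, calls were made in 10 of 14 cytokine, 7 of 17 pattern recognition, 5 of 11 granule, 7 of 11 S100 and cystatin, 7 of 16 adhesion, 14 of 28 transcription factor, 9 of 14 interferon and 7 of 8 division genes, against 35.5% of all genes. Growth factor and cytokine receptors were called in 6 of 15, iron and oxidative stress genes in 5 of 15, survival genes in 3 of 9, heat shock genes in 4 of 7 and lipid mediator genes in 3 of 5. Actin and motility genes were called in 2 of 17 and oxidase genes in 0 of 7. For some genes NEJ634 and NEJ709 were the lowest of the 7. They held 311 and 398 CPM of Csf3r and 256 and 330 of Cxcr2, below each of the 5 others, and both genes were then called. Atf3 was at 262 and 254 CPM in these 2 libraries, just below NEJ723, the lowest of the 5. For Cd14, at 1989 and 477 CPM, and Nfkbia, at 1012 and 760, only NEJ709 lay below the 5. The lowest of the 5 held 248 UMIs of Atf3 (NEJ723), 100 of Cd14 and 145 of Nfkbia (both NEJ638). Its counting interval overlapped that of NEJ709 for each of these genes. Lcn2, at 2307 and 2361 CPM, Retnlg, at 11791 and 13040, Cxcr4, at 182 and 265, and Hmox1, at 534 and 303, lay within the range of the 5.

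Markers of other cells moved with the libraries as well, and their part in the differences above was not tested. The 10 hepatocyte genes summed to 4107 CPM in members of NEJ638, 1148 in NEJ723, 696 in NEJ687, 5894 in NEJ654 and 4192 in NEJ677, against 7459 to 44784 in low-UMI barcodes. The 10 macrophage and Kupffer cell genes summed to 1314 CPM in NEJ654 and 584 in NEJ677 and to 135 to 269 in the other 3, with at most 1 of them at 0. The 6 hepatoblastoma genes, such as Igf2 and H19, summed to 416 CPM in NEJ723 and 321 in NEJ687, to 12.2 in NEJ638 and to 0 in NEJ654 and NEJ677, and reached 3275 in NEJ634. The 8 erythroid genes summed to 1394 CPM in NEJ687 and 977 in NEJ723, against 0 in NEJ654, 36.1 in NEJ677 and 128 in NEJ638. The 7 monocyte genes summed to 104 CPM in NEJ638, 305 in NEJ723, 314 in NEJ687, 102 in NEJ654 and 90.4 in NEJ677, with 5 at 0 in NEJ638 and NEJ677 and 3 in NEJ654. T and NK cell genes summed to 64.4 to 220, B cell genes to 49.0 to 558, endothelial genes to 12.0 to 169 and megakaryocyte genes to 12.1 to 123 CPM in the 5 libraries. Low-UMI barcodes there held 73.4 to 195 CPM of T and NK, 110 to 447 of B and 213 to 338 of monocyte genes. Members lay above the low-UMI level of their library for T and NK genes in NEJ638 and NEJ723 and for B cell genes in NEJ654. They also did so for monocyte genes in NEJ723 and NEJ687, and lay below it in the other cases of these lists. The 9 genes of eosinophils, basophils and mast cells summed to 0 to 6.46 CPM, and all 9 were at 0 in NEJ654 and NEJ677. Mitochondrial UMIs also differed, with medians in members of 11.6% in NEJ638, 2.60% in NEJ723, 0.35% in NEJ687, 1.70% in NEJ654 and 1.59% in NEJ677. Gt(ROSA)26Sor, the transcript of the Rosa26 locus, was at 1031 CPM in NEJ638 and 788 in NEJ723 but 10.7 and 18.1 in NEJ654 and NEJ677 and 185 in NEJ687. The study's methods name its MYC strain R26StopFLMYC, and the labels do not give the alleles of each library. The part of genotype in this difference was not tested.

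A second comparison set members against granule-rich neighbours of the same library. The rule split these cells by Camp, Ngp and Ltf, so the contrast is a description of what goes with less granule transcript. NEJ638 held 29 neighbours, NEJ723 held 311 and NEJ687 held 518, while NEJ634 held 1974, NEJ709 held 7178, NEJ677 held 4 and NEJ654 held 0. In the 5 libraries with at least 20 of each, which are NEJ634, NEJ709, NEJ638, NEJ723 and NEJ687, 79 of 2359 genes (3.35%) were at least 2-fold higher in members in every one and 6 (0.254%) at least 2-fold lower. With the granule limit at 2% these counts were 0 and 2, and with the S100 limit at 10% they were 147 and 27. In NEJ638, NEJ723 and NEJ687 alone, 220 of 2126 genes (10.3%) were higher and 57 (2.68%) lower, and with the granule limit at 2% the counts were 199 and 52. When the genes of the rule were left out of the base, every log2 difference shifted by -0.45 in NEJ638, -0.33 in NEJ723 and -0.35 in NEJ687, and the counts became 130 higher and 132 lower. The median log2 difference over all genes was 0.16 in NEJ638, 0.29 in NEJ723 and 0.27 in NEJ687, which is the level to read single genes against. The values that follow are log2 differences, members over neighbours, in NEJ638, NEJ723 and NEJ687 in that order. The 29 neighbours of NEJ638 held 84630 base UMIs in all, so that 1 UMI was worth 11.8 CPM there, and 80 of the 220 higher genes rested on 3 UMIs or fewer in them, 12 of these on 0.

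Some markers of other cells were higher in members than in neighbours too, and their part in the values that follow was not tested. The 10 hepatocyte genes summed to 1702, 572 and 356 CPM in neighbours of NEJ638, NEJ723 and NEJ687, against 4107, 1148 and 696 in members. Of 6 of them tested 1 was called higher, Alb, with a median log2 difference of 1.01 over the 6, beside 0.98 over 4 erythroid genes and 0.95 over 2 hepatoblastoma genes, of which 0 were called. Such medians lie close to those of the pattern recognition genes, at 1.09, and the adhesion and chemoattractant receptor genes, at 1.04. The 10 macrophage and Kupffer cell genes summed to 1146, 36.1 and 195 CPM in neighbours against 269, 135 and 185 in members, and the 7 monocyte genes to 863, 576 and 524 against 104, 305 and 314.

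Some genes of the inflammatory response were higher in members. Of 12 cytokine and chemokine genes tested, 6 were higher in all 3 libraries and 0 lower: Il1b, Il1rn, Tnf, Cxcl2, Ccl4 and Ccl6. Tnf had 2 UMIs in the neighbours of NEJ638, a ratio there of 8.26 with a counting interval of 2.11 to 71.2. Il1b differed by 2.29, 2.72 and 3.82 on the log2 scale, with neighbours at 414, 727 and 357 CPM against 2026, 4788 and 5060 in members. Cxcl2 differed by 3.79, 2.05 and 4.14. Pattern recognition genes were higher in 6 of 16 and lower in 0, with Nlrp3 at 3.50, 1.99 and 3.93 and Clec4d at 2.90, 2.24 and 2.74, and Tlr2, Tlr13, Clec4e and Trem1 besides. Transcription factor genes were higher in 13 of 29, among them Cebpb, Junb, Fosb, Atf3, Nfkbia and Zfp36, and 1 was lower, Cebpe, the factor that drives secondary granule genes, at -2.40, -1.89 and -2.63.

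Adhesion and chemoattractant receptor genes were higher in 7 of 17, with Ccrl2, which binds the attractant chemerin, at 4.76, 2.13 and 3.84 and Cxcr4 at 2.74, 1.39 and 2.06, while Ly6g, at -3.19, -1.80 and -1.35, and Ceacam1 were lower. The first Ccrl2 value rests on 2 neighbour UMIs, a ratio of 28.1 with a counting interval of 7.61 to 235. Growth factor and cytokine receptor genes were higher in 5 of 12 and survival genes in 6 of 9, and 0 of either were lower. Lipid mediator genes were higher in 3 of 6, with Ptgs2, the inducible cyclooxygenase, at 2.21 in NEJ723 and 4.11 in NEJ687 and with 0 UMIs in the 29 neighbours of NEJ638, whose members had 446 CPM, and Hcar2, a receptor for ketone bodies and niacin, at 3.76, 1.92 and 3.23. Lta4h, which makes leukotriene B4, was the gene of this list that was lower. Among iron and oxidative stress genes 6 of 15 were higher, including Fth1 at 1.72, 1.40 and 1.63 and Slc7a11 at 1.96, 1.72 and 1.98. Of 9 S100 and cystatin genes 3 were higher, Stfa1, Stfa2l1 and Cstdc4, and Anxa1, a calcium-dependent membrane-binding protein, was lower. Cstdc4 differed by 1.57 in NEJ723 and 2.65 in NEJ687. In NEJ638 it had 3 UMIs in neighbours and 415 in members, a ratio of 71.4 with a counting interval of 24.3 to 348, and Stfa2l1 had 1 against 186, a ratio of 96.1 with an interval of 17.0 to 3815.

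Granule and oxidase genes that the rule did not use went the other way in part. Of 14 secondary and tertiary granule genes 7 were lower and 0 higher: Lcn2, Chil3, Fcnb, Cd177, Itgb2l, Ltb4r1 and Lyz2, of which Ltb4r1 encodes a receptor for leukotriene B4. Lcn2 differed by -3.28, -1.72 and -1.74, with 9063, 13933 and 20033 CPM in neighbours. Mmp9, at 0.23, -0.32 and -0.16, hardly differed. Cybb, the catalytic subunit of the phagocyte oxidase, was lower by a like amount in each library, at -3.64, -3.46 and -3.59, and was the only 1 of 7 oxidase genes to be called. Neighbours had 1229, 948 and 1122 CPM of Cybb and members 97.7, 85.1 and 92.0, while the low-UMI barcodes of the same libraries had 79.2, 34.8 and 68.1. The subunits Cyba, Ncf1 and Ncf4 lay between -1.61 and 0.08. Ifitm6 was lower at -3.05, -1.54 and -1.40 while Ifitm1 was higher at 1.71, 2.48 and 3.64. Of 17 actin genes and 8 division genes, 0 were called in either direction. With the rule genes left out of the base, counts are given over the genes measured, since the number tested under that base is not given. Higher were then 5 of 23 cytokine genes (Il1b, Il1rn, Cxcl2, Ccl4 and Ccl6), 4 of 19 pattern recognition, 6 of 18 adhesion and 4 of 18 growth factor and cytokine receptor genes. So were 3 of 18 survival, 4 of 24 iron and oxidative stress, 3 of 11 lipid mediator and 8 of 34 transcription factor genes. Among the lower genes were 8 of 14 granule genes and Cybb. These shares cannot be set against a share over all genes. Tnf, Tlr2, Clec4e, Trem1, Cebpb, Zfp36, Stfa1 and Stfa2l1 were then no longer called. With NEJ634 and NEJ709 also required, the genes higher in members were 4 of 13 cytokine, 4 of 15 pattern recognition, 4 of 17 adhesion, 3 of 13 growth factor and cytokine receptor, 1 of 9 survival, 2 of 13 iron and oxidative stress, 3 of 6 lipid mediator, 3 of 11 S100 and cystatin and 2 of 29 transcription factor genes, and 1 of 14 granule genes was lower. Over all genes 3.35% were higher and 0.254% lower in that comparison.

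**Figure D3:**
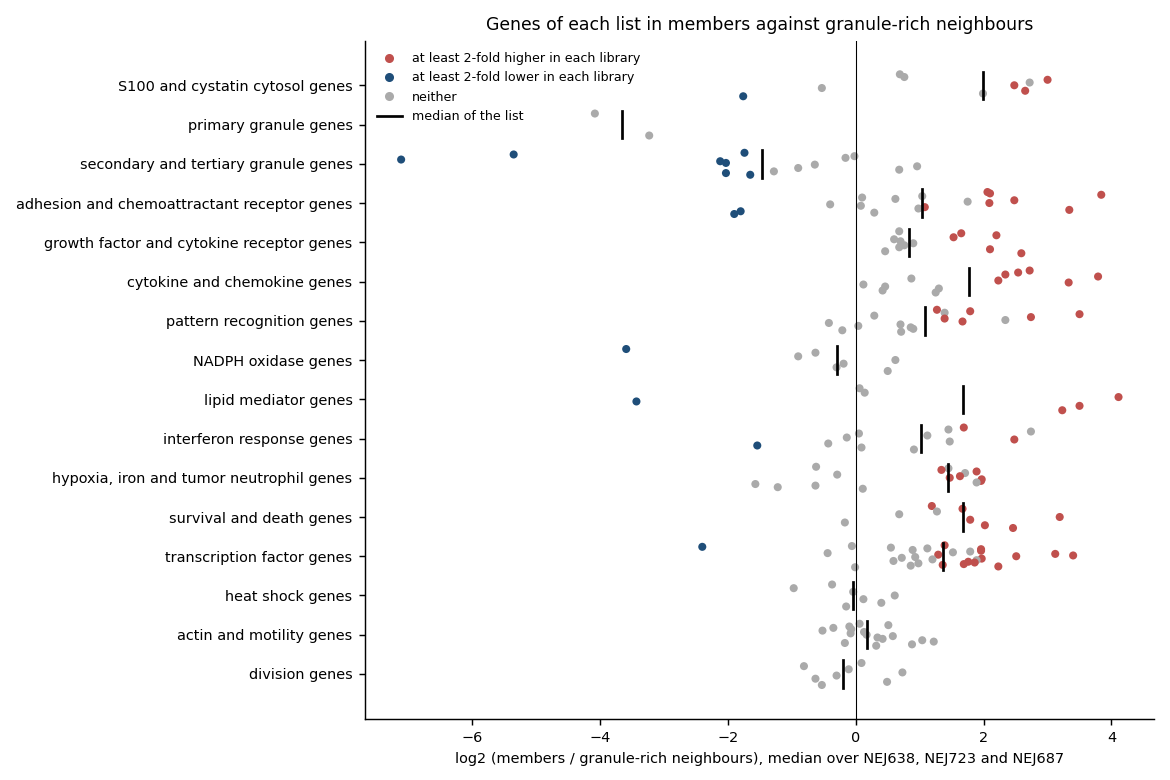
Each point is 1 gene of a list, placed at the median over NEJ638, NEJ723 and NEJ687 of its log2 difference between members and granule-rich neighbours with a pseudocount of 1 CPM (x axis), with lists in rows and a black bar at the median of each list. Red genes were at least 2-fold higher in all 3 libraries and blue genes at least 2-fold lower: the medians run from -1.46 for secondary and tertiary granule genes, with primary granule genes at -3.66 from 2 genes, to 1.77 for cytokines and 1.99 for S100 and cystatin genes.

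Within the members themselves the same contrast could be followed further in NEJ723 and NEJ687. There 172 and 320 members had no Camp, Ngp or Ltf UMI after thinning to 500 UMIs, and 127 and 200 had at least 1. Median depths were 2364 and 3107 UMIs in NEJ723 and 1851 and 2464.5 in NEJ687, without and with such a UMI. Il1b was at 727 CPM in neighbours, 3331 in members with a granule UMI and 6451 in members without in NEJ723, and at 357, 3164 and 6612 CPM in NEJ687, in steps upward. Cxcl2 took the same order, at 1799, 5953 and 9137 CPM in NEJ723 and at 564, 4591 and 14352 in NEJ687. Nlrp3, Ccl4 and Fth1 had this order in both libraries as well, as did Csf3r, a gene of the rule. So did some genes of other cells: the hepatocyte genes Alb and Apoa2, the hepatoblastoma genes Afp and H19, the erythroid genes Slc4a1 and Alas2, and the nuclear transcript Malat1. Alb was at 77.1, 160 and 251 CPM in NEJ723, H19 at 118, 172 and 264 in NEJ687, and Malat1 at 8188, 13031 and 17176 in NEJ723. The part of these other transcripts in the order of Il1b and Cxcl2 was not tested.

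Lcn2 had the opposite order, at 13933, 4773 and 3622 CPM in NEJ723 and at 20033, 8003 and 4334 in NEJ687. Cybb differed more, at 948, 116 and 50.6 CPM in NEJ723 and at 1122, 153 and 42.2 in NEJ687. Ifitm6 and Lyz2 had the order of Lcn2 in both libraries. Retnlg, which is a gene of the rule, and Mmp8 had another order and were highest in the middle step. Mmp8 was at 938, 1235 and 572 CPM in NEJ723 and at 1218, 1810 and 806 in NEJ687, and Retnlg at 12884, 24901 and 16424 and at 17004, 46189 and 24778. Chil3 was at 4215, 1137 and 1195 CPM in NEJ723 and at 3673, 138 and 49.98 in NEJ687, so the 2 libraries differed in the last step.

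**Figure D4:**
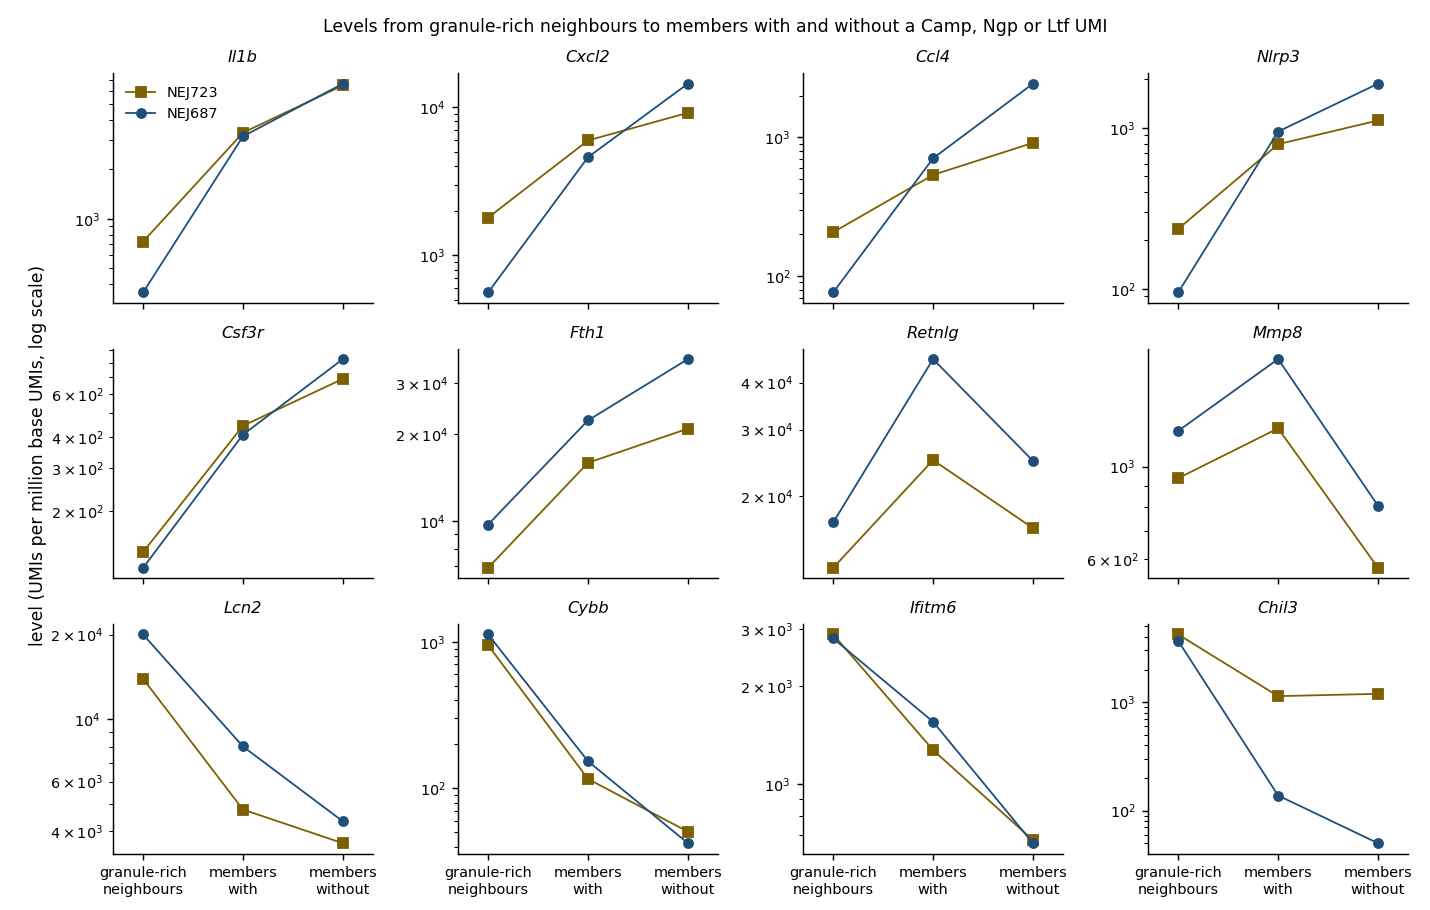
Levels of 12 genes (y axis, UMIs per 1000000 base UMIs, log scale) in granule-rich neighbours, in members with and in members without a thinned Camp, Ngp or Ltf UMI, for NEJ723 (squares) and NEJ687 (circles), with no replicate of either. Il1b reached 6451 and 6612 CPM in the last step, Lcn2 ended at 3622 and 4334 from 13933 and 20033, and Retnlg and Mmp8 peaked in the middle step in both libraries. Csf3r and Retnlg are genes of the rule.

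The order of the steps is set by the rule genes and not by time, and depth differed between the steps. In NEJ723 the low-UMI barcodes gave 0.11% of their base to Camp, Ngp and Ltf against 0.27% in the pooled members, and in NEJ687 the values were 0.21% and 0.22%. The part of free RNA in these orders was not tested. Among members with at least 10% of base from S100a8 and S100a9, which numbered 423 in NEJ687, 193 in NEJ723, 140 in NEJ638, 73 in NEJ654, 67 in NEJ677, 170 in NEJ634 and 64 in NEJ709, the share of all barcodes was 0.756%.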

How the data were processed

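Droplet libraries were made from 7 dissociated mouse livers with 10x Genomics 3' chemistry. The authors counted UMIs per gene and barcode with Cell Ranger; the labels name version 6.0 and the file headers version 4, the methods mention counting of introns, and which run gave these files and which genome build was used are not given in the sources used here. The deposited counts are raw, unfiltered UMI counts of 32285 genes for every barcode, without normalization.

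The limits on barcodes were more than 500 UMIs and a mitochondrial share of 20% or less, and members were chosen by the rule stated in the report. Members and gene lists (26 lists, 350 genes) were chosen with earlier results of these data known. Members' counts were summed per library and scaled to 1000000 base UMIs. Intervals are exact Poisson for levels and Clopper-Pearson for shares, at 95%, and cover counting error only. Since the labels give the libraries no groups, those the study's text names were not used and no test was run. Range between libraries was described for genes of at least 50 CPM on average, and members against neighbours with a pseudocount of 1 CPM and a 2-fold limit. Shares with a UMI used barcodes thinned to 500 base UMIs. No doublet caller was run, and members with 1% or more of base from markers of other cells were left out as an alternative. Named genes were those of the rule, those highest or of widest range in each list, those differing most from neighbours, and those the study discusses for neutrophils, and further genes of the lists, which are Anxa1, Ceacam1, Cebpe, Clec4e, Cybb, Il23a, Il4ra, Irf7, Isg15, Itgb2l, Lta4h, Ltb4r1, Ncf1, Stfa1, Tlr2, Tnf and Zfp36, were named after their values were seen. Scripts were tested on simulated data. Python 3.11.15, numpy 2.4.6, scipy 1.17.1, pandas 2.3.3 and matplotlib 3.10.9 were used, and promoters came from RefSeq on GRCm38.p6. Other samples or tables were not used here.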

Additional observations from a re-analysis of the deposited data

How the results depend on the processing

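No paired analysis was possible because the labels give neither groups nor replicate numbers. The share of members, 1.81%, became 1.99% above 1000 UMIs, 2.05% at up to 10% mitochondrial UMIs, 0.756% with at least 10% of base from S100a8 and S100a9, 1.25% with 6 marker UMIs and 0.6%, 1.27% and 5.62% with Camp, Ngp and Ltf under 0.5% and under 2%, 1.07% without members holding 1% or more of other cells' markers, and 2.24% without NEJ634 and NEJ709, a choice made after the data were seen. The medians that follow are over all 7 libraries, unless NEJ634 and NEJ709 are left out. In the order S100 limit, marker limit, 0.5%, 2%, other cells, all genes as denominator, mean over members, low-UMI profile subtracted and without the 2 libraries, the median Il1b level of 4788 CPM became 4240, 4593, 5668, 4224, 4938, 4280, 5295, 5565 and 5060. The median Cxcl2 level of 7202 CPM became 5212 under the S100 limit, 6631 under the marker limit, 6584 under 2%, 7698 without other cells, 6649 with all genes and 8635 with the profile subtracted. The 852 genes called between libraries became 500 (S100 limit), 559 (other cells), 409 (without the 2 libraries), 2265 (mean of at least 10 CPM) and 235 (mean of at least 200 CPM). The 79 genes higher than in neighbours became 147 (S100 limit), 0 (under 2%), 151 (other cells) and 220 (without the 2 libraries), and the 6 lower ones 15 (10% mitochondrial), 27 (S100 limit), 20 (marker limit), 11 (under 0.5%), 2 (under 2%) and 57 (without the 2 libraries). In NEJ638, NEJ723 and NEJ687 alone, settings tried after the data were seen moved the 220 higher and 57 lower genes to 130 and 132 when the base left out the rule genes, and to 166 to 229 and 50 to 67 under the others. The median share of members with an Il1b UMI over libraries, 71.2%, became 81.2% when thinned to 1000 UMIs and 87.4% unthinned. Of 268 other values, 142 stayed within their counting interval and 126 moved. The causes were not tested. Depth limits low genes: 3 UMIs amount to 2.35 to 18.3 CPM per library.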
